A study of Mus musculus with 15 samples.

Results

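The proteasome is the large protease that degrades ubiquitin-tagged proteins in the cytosol and nucleus, and the genes described here encode its constitutive parts. The set was defined by symbol: every gene named by a single symbol beginning with Psma, Psmb, Psmc, Psmd, Psme, Psmf or Psmg and a digit, except Psmb8, Psmb9, Psmb10 and Psmb11, which encode the inducible and thymus-specific catalytic subunits. This gave 46 of the 19938 genes measured. Of the 46 genes, 44 encode subunits, activators, an inhibitor or assembly chaperones of the proteasome. Psmc3ip and Psme3ip1 share the naming pattern but encode interacting proteins that are not parts of the proteasome.

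RNA of whole thymus was measured in 15 female mice, each 5 weeks old, on 1 Affymetrix Mouse Gene 1.0 ST array per mouse. The mice belonged to 2 strains, NOD.LCMV and NOD.Ln82-LCMV, and had received 0.5 µg of peptide intravenously 2 hours earlier. The peptide was either gp33, an epitope of the lymphocytic choriomeningitis virus glycoprotein presented by H-2Db, or another Db-binding peptide, the control. The NOD.Ln82-LCMV strain supplied 4 control and 5 gp33 arrays, and NOD.LCMV supplied 3 of each. NOD is the non-obese diabetic strain, and the series title places the study at the diabetes locus Idd7, its gene Nfkbid and the impaired deletion of CD8 T cells in the thymus. The labels describe neither the LCMV transgene nor the Ln82 segment, and they name no batch, so strain and any batch that followed strain cannot be told apart.

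The catalytic core of the proteasome, the 20S particle, is a barrel of outer alpha rings and inner beta rings, and 3 of the constitutive beta subunits carry the peptide-cutting sites. The 19S cap recognises ubiquitin, unfolds the substrate with a ring of ATPases and feeds it into the core, while other activators such as PA28 (Psme1 and Psme2, or Psme3) and PA200 (Psme4) open the core without ubiquitin. In immune cells and in the thymus, proteasome products are loaded onto MHC class I and shown to CD8 T cells, and interferon-induced subunits and PA28 alter which peptides are made.

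Promoter windows from RefSeq (GRCm38.p6; 250 bases before to 50 bases after a listed transcript start) were found for 38 of the 46 genes. The first 3 windows shown belong to the activator genes whose values below separate the groups most, and the last to Psmb6, the catalytic gene with the largest strain difference. Psme1 lies at chr14:55578244-55578543 on the plus strand, and its capitals mark an interferon response element, read on the opposite strand, at position 9 from the start. Psme2 lies at chr14:55591052-55591351 on the minus strand, and neither of its 2 overlapping windows, of which 1 is shown, held any of the 5 motifs searched. Psme3 lies at chr11:101315963-101316262 on the plus strand, with a CCAAT box, read on the opposite strand, in capitals at position -14. Psmb6 lies at chr11:70525107-70525406 on the plus strand, with an antioxidant response element in capitals at position -9.
Psme1: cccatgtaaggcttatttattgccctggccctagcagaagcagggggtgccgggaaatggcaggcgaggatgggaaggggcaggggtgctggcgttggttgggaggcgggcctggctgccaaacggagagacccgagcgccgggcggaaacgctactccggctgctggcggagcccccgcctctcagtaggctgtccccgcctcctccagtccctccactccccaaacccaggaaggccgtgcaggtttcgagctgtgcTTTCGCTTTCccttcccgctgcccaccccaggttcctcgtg
Psme2: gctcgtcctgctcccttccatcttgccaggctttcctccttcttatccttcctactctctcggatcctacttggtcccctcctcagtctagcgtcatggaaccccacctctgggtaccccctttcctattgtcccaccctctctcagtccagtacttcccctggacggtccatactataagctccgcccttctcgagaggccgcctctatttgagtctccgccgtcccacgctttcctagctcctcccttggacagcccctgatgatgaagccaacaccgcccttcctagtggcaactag
Psme3: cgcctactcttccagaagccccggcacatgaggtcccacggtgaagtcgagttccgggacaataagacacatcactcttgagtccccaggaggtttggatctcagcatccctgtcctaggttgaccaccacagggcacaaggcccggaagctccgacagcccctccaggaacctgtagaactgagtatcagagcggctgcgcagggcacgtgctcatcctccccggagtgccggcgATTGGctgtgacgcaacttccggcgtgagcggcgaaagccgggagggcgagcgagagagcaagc
Psmb6: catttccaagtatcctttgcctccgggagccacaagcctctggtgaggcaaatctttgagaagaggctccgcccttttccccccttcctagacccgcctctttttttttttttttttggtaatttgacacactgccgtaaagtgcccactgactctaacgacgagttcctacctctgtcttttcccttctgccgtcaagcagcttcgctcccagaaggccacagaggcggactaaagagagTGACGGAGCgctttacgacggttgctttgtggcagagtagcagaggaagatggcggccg

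The motifs were searched on both strands in all windows of a gene, and a match is a description of the letters only. The interferon response element, spelled here as GAAA, any 2 bases and GAAA again, stood in the windows of 5 of the 38 genes (13.2%; Psmb3, Psmd4, Psmd9, Psme1 and Psmg4), against 3.99% of the 27025 genes with a window. The antioxidant response element, spelled TGACNNNGC, is the kind of site read by Nfe2l1, which drives the proteasome genes when proteasome activity is low. It stood in 6 of the 38 genes (15.8%; Psmb5, Psmb6, Psmc6, Psmd9, Psmd12 and Psme4), against 14% of all genes. CCAAT stood in 14 of the 38 genes (36.8%), against 41.1%, the NF-kB site in 6 (15.8%), against 9.55%, and the STAT site TTCNNNGAA in 2 (5.26%; Psmd2 and Psmg1), against 9.55%. Windows of these genes had a median of 59% G and C, while 53.8% of the bases of all windows pooled were G or C. Base composition bears on how often each motif occurs. The genes lie on many chromosomes. Of those on chromosome 7, which also carries Nfkbid, Psmd8 is separated from Nfkbid by 37 measured genes, Psmc4 by 79, Psma1 by 854 and Psmd13 by 1163.

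All values are log2 RMA values, so that a difference of 1 is a 2-fold change, and ± after a difference is the standard error from limma. The 46 genes were well expressed apart from Psma8, the alpha subunit of the testis. Psma8 averaged 6.49 over the 15 arrays and was the only gene of the set among the dimmest 33.3% of all genes, whose means ended at 6.92. It ranged from 6.49 to 6.73 and from 6.38 to 6.57 in NOD.Ln82-LCMV mice given control peptide and gp33, and from 6.35 to 6.60 and from 6.36 to 6.43 in the corresponding NOD.LCMV mice. The highest mean was that of Psmb3 (12.9). Array medians over all probe sets followed strain, at 7.59 to 7.63 in NOD.Ln82-LCMV and 7.63 to 7.67 in NOD.LCMV, and arrays of a group correlated at 0.990 or more. Of 12 thymocyte markers 11 were measured, and their mean lay between 11.32 and 11.64 in the NOD.Ln82-LCMV arrays, between 11.33 and 11.53 in NOD.LCMV with control peptide and between 10.86 and 11.38 in NOD.LCMV with gp33. The mean of 5 granulocyte markers lay between 6.44 and 6.79 in the NOD.Ln82-LCMV arrays, between 6.60 and 6.74 in NOD.LCMV with control peptide and between 7.49 and 7.87 in NOD.LCMV with gp33. Only 2 of these 5 markers had a mean above 6.92, and S100a8, Ly6g and Mmp8 were among the dimmest 33.3% of genes. In such whole-tissue RNA, fewer cells of a type and less RNA per cell cannot be told apart.

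The first comparison asked whether the strains differed without gp33. With control peptide, 14 of the 46 genes (30.4%) were lower in NOD.LCMV than in NOD.Ln82-LCMV and 0 were higher at a limma adjusted p under 0.05, while 5.54% of all genes were lower and 4.77% higher. At an unadjusted p under 0.05, 21 genes were lower and 2 higher, against 2145 and 2308 of all 19938 genes. The median difference of the 46 genes was -0.12, against 0.01 over all genes. Of the 46 differences 41 were below 0, against 8900 of all 19938 genes. The 5 above 0 were those of Psme3, Psme4, Psmf1, Psmg3 and Psme3ip1. In 20 genes every NOD.LCMV array lay below every NOD.Ln82-LCMV array and in 3 above, shares to be read against 9.36% and 10.3% of all genes. The differences were small, the largest being that of Psmd7 at -0.40. Without NOD.LCMV control replicate 3 the count was 7, and without NOD.Ln82-LCMV control replicate 3 it was 9; the lower calls over all genes then went from 1105 to 586 and 701. With each array centred on its median it was 22, all lower, against 10.7% of all genes lower. The calls of Psmb2, Psmb3, Psmb4, Psmb6, Psmd5, Psme1 and Psme2 held in every alternative run, and those of Psma7, Psmc2, Psmd7, Psmd8, Psmd10, Psmg2 and Psmg4 did not. Thymocyte marker means overlapped between these groups, and 0 of the 11 thymocyte markers were called. Of the other marker lists, 1 of 4 B cell markers was lower, and the B cell mean ranged from 7.85 to 8.86 in NOD.Ln82-LCMV and from 7.49 to 8.43 in NOD.LCMV. Of the endothelial markers 2 of 5 were higher and of the red cell markers 1 of 2 was lower, and the part of these cells in the proteasome differences was not tested.

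**Figure D1:**
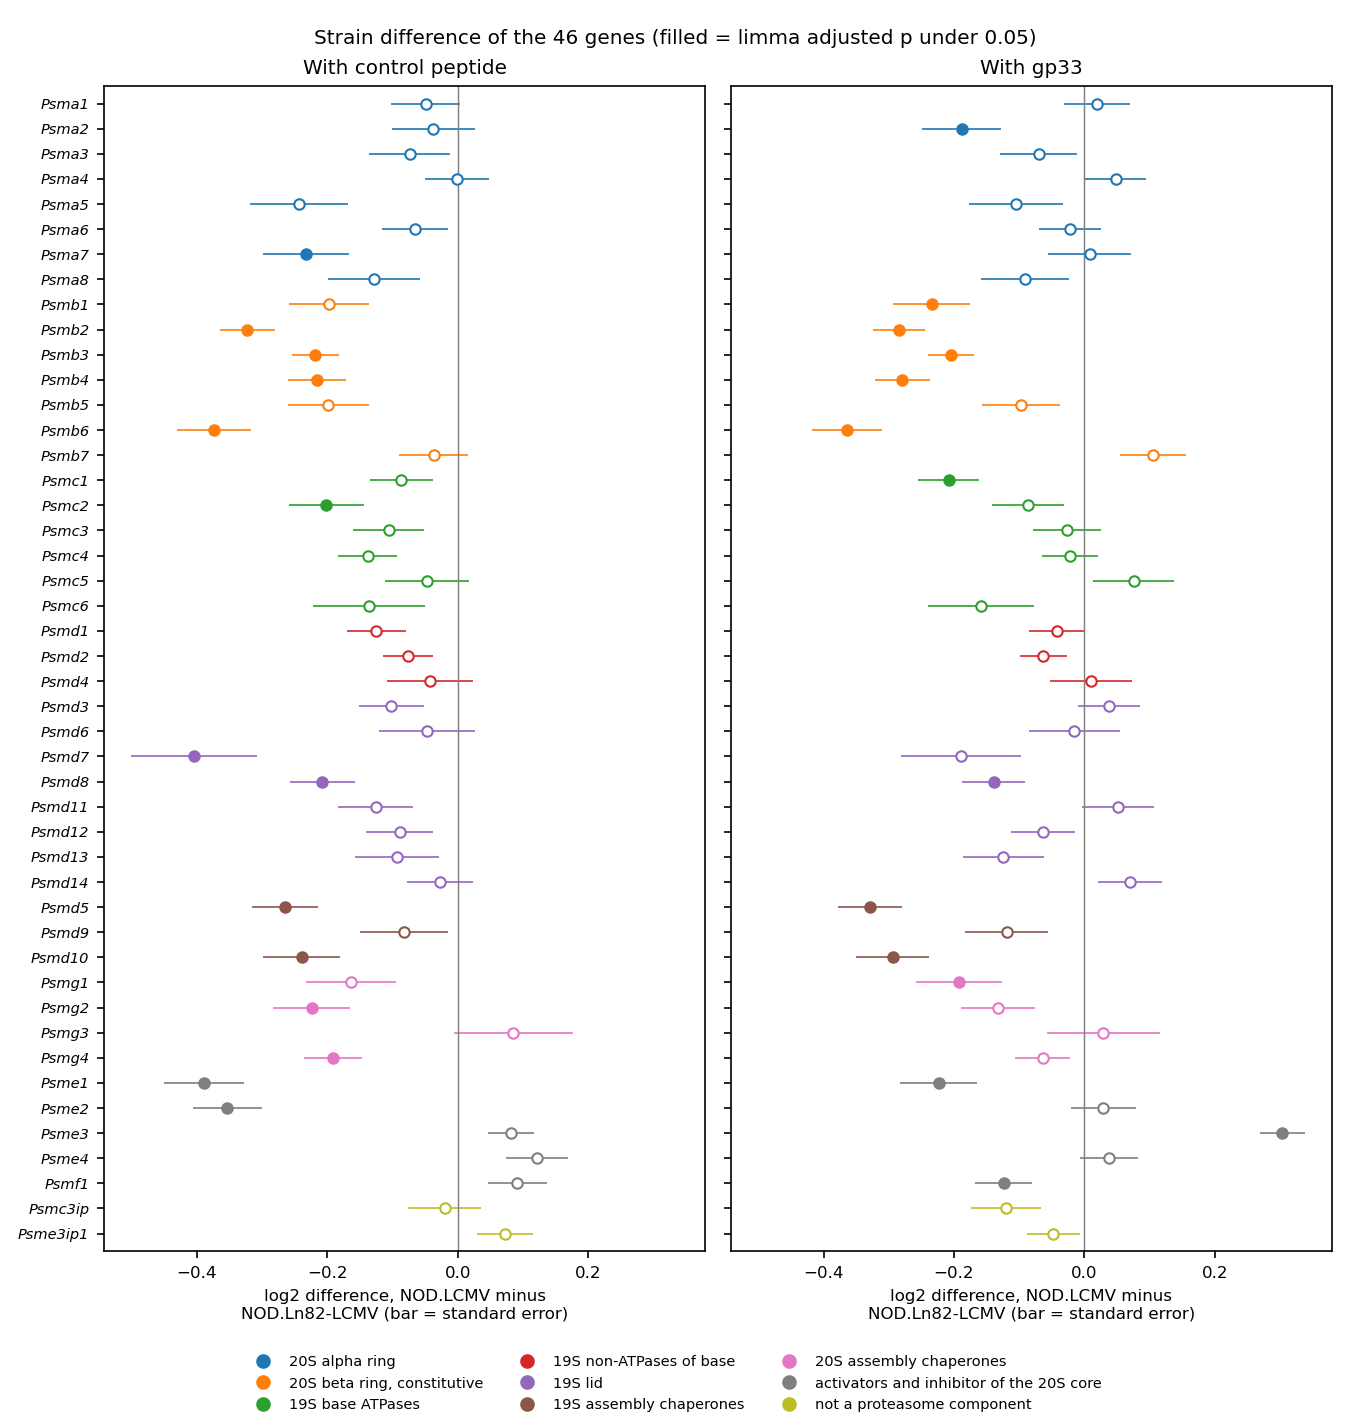
Strain difference (NOD.LCMV minus NOD.Ln82-LCMV, log2; horizontal axis) of each of the 46 genes, coloured by role, with control peptide (left) and with gp33 (right). Points are limma estimates, bars are standard errors and filled points have an adjusted p under 0.05; 41 of 46 points lie below 0 on the left and 33 of 46 on the right.

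The beta ring of the core had the highest share of lower genes among the roles with more than 3 genes. All 7 constitutive beta subunit genes had differences below 0 with control peptide (median -0.22), and 4 of 7 were called lower. Over all genes, 5.54% were lower in that comparison. The gene with the largest difference among them was Psmb6, the caspase-like catalytic subunit. Psmb6 read 11.03, 11.05, 11.12 and 11.12 in the 4 NOD.Ln82-LCMV control mice, and 10.68, 10.74 and 10.70 in the 3 NOD.LCMV control mice. With gp33 it read 11.24, 11.05, 11.12, 10.98 and 11.13 in NOD.Ln82-LCMV and 10.79, 10.78 and 10.65 in NOD.LCMV. All 6 NOD.LCMV arrays thus lay below all 9 arrays of the other strain. The difference was -0.37 ± 0.06 with control peptide (0.772-fold, 95% interval 0.71 to 0.84, adjusted p = 0.000952). With gp33 it was -0.36 ± 0.05 (0.777-fold, 0.717 to 0.842, adjusted p = 0.000114).

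The structural beta subunits Psmb2, Psmb3 and Psmb4, which carry no cutting site, showed the same separation of strains. Psmb2 read 12.15, 12.31, 12.27 and 12.28 in NOD.Ln82-LCMV and 11.94, 11.96 and 11.89 in NOD.LCMV with control peptide. After gp33 the values were 12.25, 12.32, 12.29, 12.27 and 12.26, and 12.00, 11.99 and 11.99. Every NOD.LCMV array was lower, at 0.800-fold with control peptide (log2 -0.32 ± 0.04, adjusted p = 0.000312) and at 0.821-fold with gp33 (-0.28 ± 0.04, adjusted p = 6.52e-05). Psmb3 read 12.90, 12.95, 12.94 and 12.95 against 12.74, 12.74 and 12.67 with control peptide. Under gp33 these were 12.97, 12.97, 12.92, 12.90 and 12.98 against 12.74, 12.75 and 12.74. The groups were again apart, with differences of -0.22 ± 0.04 (adjusted p = 0.00172) and -0.20 ± 0.03 (adjusted p = 0.000374), and a second probe set of Psmb3 gave -0.26 and -0.22. Psmb4 read 12.08, 12.13, 12.17 and 12.19 against 11.98, 11.89 and 11.91 with control peptide. The gp33 arrays read 12.22, 12.32, 12.26, 12.18 and 12.25 against 11.92, 11.98 and 12.00. No array of one strain reached those of the other under either peptide, and the differences were -0.22 ± 0.04 (adjusted p = 0.00585) and -0.28 ± 0.04 (adjusted p = 0.000127). Psmb1 lay between 9.85 and 9.98 against 9.68 to 9.74 with control peptide (-0.20 ± 0.06, adjusted p = 0.0541) and between 9.82 and 10.03 against 9.56 to 9.76 with gp33 (-0.23 ± 0.06, adjusted p = 0.00709). It passed the test only with gp33, where leaving out NOD.LCMV gp33 replicate 1 ended the call.

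**Figure D2:**
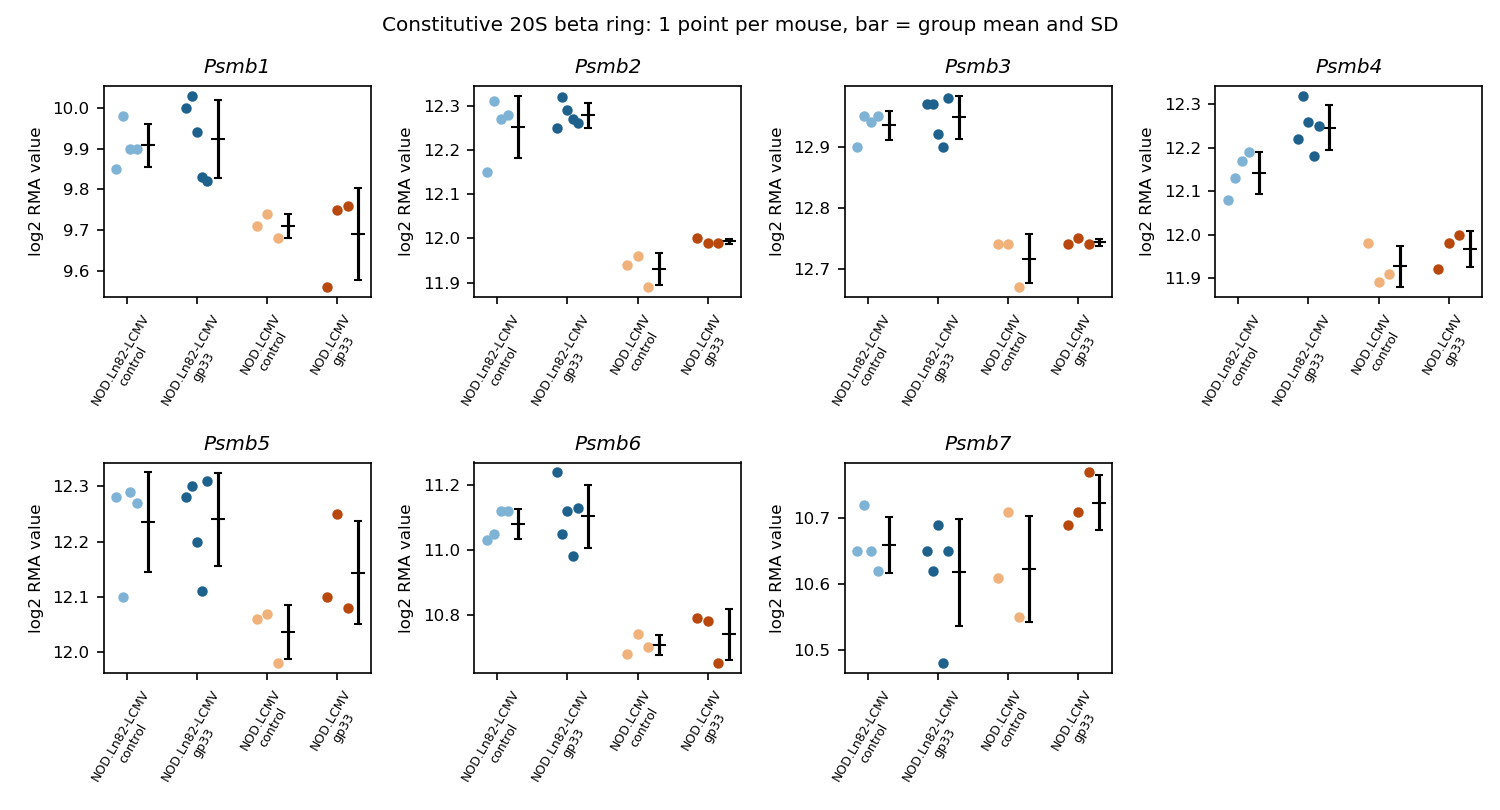
Log2 RMA value (vertical axis) of the 7 constitutive beta subunit genes in the 4 groups, with 1 point per mouse and a bar for the group mean and SD. In Psmb1, Psmb2, Psmb3, Psmb4 and Psmb6 the 6 NOD.LCMV points lie below the 9 NOD.Ln82-LCMV points. In Psmb5 the strains overlap with gp33 and in Psmb7 with control peptide.

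The other catalytic subunits did not pass the test. Psmb5, the chymotrypsin-like subunit, read 12.28, 12.10, 12.29 and 12.27 in NOD.Ln82-LCMV and 12.06, 12.07 and 11.98 in NOD.LCMV with control peptide. After gp33 they were 12.28, 12.30, 12.20, 12.11 and 12.31, and 12.10, 12.25 and 12.08. The strains were apart with control peptide and overlapped with gp33. The differences were -0.20 ± 0.06 (95% interval -0.33 to -0.07, adjusted p = 0.0562) and -0.10 ± 0.06 (-0.22 to 0.03, adjusted p = 0.288). Psmb7, the trypsin-like subunit, read 10.65, 10.72, 10.65 and 10.62 against 10.61, 10.71 and 10.55 with control peptide. Under gp33 the arrays read 10.65, 10.62, 10.69, 10.48 and 10.65 against 10.69, 10.71 and 10.77. The strains overlapped with control peptide, and with gp33 the NOD.LCMV arrays were at or above the others. The differences were -0.04 ± 0.05 (95% interval -0.15 to 0.08, adjusted p = 0.779) with control peptide and 0.11 ± 0.05 with gp33 (interval from just below 0 to 0.21, adjusted p = 0.155).

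With gp33 the strain comparison again gave mostly lower values in NOD.LCMV. It called 13 of the 46 genes lower (28.3%) and 1 higher, Psme3, against 16.8% and 10.2% of all genes (27% in either direction). At an unadjusted p under 0.05, 15 were lower and 1 higher, against 4335 and 2645 of all 19938 genes. The median was -0.08 against -0.02 over all genes, and 33 of the 46 genes were below 0, against 11333 of all 19938 genes. Without NOD.LCMV gp33 replicate 1 or replicate 2 the lower count was 8, and over all genes it went from 3354 to 2893 and 2537. With median centring it was 15, against 21.5% of all genes. The calls of Psma2, Psmb1, Psmd8, Psme1, Psmf1 and Psmg1 were lost in at least 1 alternative, and the other 7 held in every one run. In 11 genes every NOD.LCMV array was lower and in 1 higher, against 16.3% and 10.6% of all genes. The lower share of the 46 genes was 28.3% where the background was 16.8%, and 30.4% where it was 5.54% with control peptide. In these arrays markers of most cell types looked at also differed by strain. In NOD.LCMV, 5 of 11 thymocyte, 5 of 7 dendritic cell and macrophage, 3 of 4 B cell, 4 of 8 thymic epithelial, 2 of 5 endothelial, 2 of 6 fibroblast and 1 of 2 red cell markers were lower and all 5 granulocyte markers were higher. The part of these changes in the proteasome values was not tested.

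The comparisons under control peptide and gp33 contrast groups with no array in common. Their calls are not independent, since the same fit of all 15 arrays gave the spread of each gene. The gp33 call of Psmd8, for example, ended without NOD.Ln82-LCMV control replicate 3 or NOD.LCMV control replicate 2. Of the 14 genes lower with control peptide and the 13 lower with gp33, 8 were in both (57.1% and 61.5%): Psmb2, Psmb3, Psmb4, Psmb6, Psmd5, Psmd8, Psmd10 and Psme1. Over all genes, 1105 were lower with control peptide and 3354 with gp33, and 838 in both (75.8% and 25.0%). The differences of the 46 genes under the 2 peptides correlated at 0.61 across genes, against 0.45 across all 19938 genes, a description of points that share arrays and normalization. Of the 46 genes, 31 were below 0 under both peptides, and the matching count over all genes was not taken.

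The alpha ring, which gates entry to the core, had fewer calls than the beta ring. All 8 alpha subunit genes were below 0 with control peptide (median -0.07). They include the dim Psma8, and the smallest of these differences was -0.0017. Of the 8, 1 was called, Psma7 (9.90 to 10.13 against 9.80 to 9.82, difference -0.23 ± 0.07, adjusted p = 0.037). With gp33 5 of the 8 were below 0 (median -0.05) and 1 was called, Psma2 (-0.19 ± 0.06, adjusted p = 0.0311), whereas Psma7 differed by 0.01. The share called was 12.5% with each peptide, against 5.54% of all genes lower with control peptide and 16.8% with gp33. Both calls ended when single arrays were left out, Psma7 at -0.28 to -0.20 and Psma2 at -0.22 to -0.15.

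In the 19S cap, 2 of the 3 assembly chaperones of the base were lower under both peptides, while fewer of its ATPases and lid subunits were called. Over all genes, 5.54% were lower with control peptide and 16.8% with gp33. Psmd5, a chaperone that holds the ATPases during assembly, read 10.38, 10.29, 10.34 and 10.21 in NOD.Ln82-LCMV and 10.03, 10.06 and 10.03 in NOD.LCMV with control peptide. In the gp33 arrays it read 10.38, 10.30, 10.38, 10.24 and 10.21, and 9.95, 9.99 and 9.98. All NOD.LCMV arrays were below all others, at 0.832-fold (adjusted p = 0.00395) and 0.796-fold (log2 -0.33 ± 0.05, adjusted p = 0.000105). Psmd10, the chaperone also known as gankyrin, read 10.68, 10.63, 10.73 and 10.65 against 10.36, 10.52 and 10.42 with control peptide. The gp33 values were 10.77, 10.60, 10.61, 10.55 and 10.64 against 10.33, 10.25 and 10.44. The strains did not overlap, and the differences were -0.24 ± 0.06 (adjusted p = 0.0165) and -0.29 ± 0.06 (adjusted p = 0.000974). Psmd9, the third chaperone measured, was not called, at -0.08 and -0.12.

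Of the 6 ATPase genes, 1 was lower with each peptide, Psmc2 with control peptide (-0.20 ± 0.06, adjusted p = 0.037) and Psmc1 with gp33. This is 16.7% with each, against 5.54% of all genes with control peptide and 16.8% with gp33. Psmc1 read 11.15, 11.18, 11.09, 11.16 and 11.06 in NOD.Ln82-LCMV and 10.95, 10.92 and 10.89 in NOD.LCMV with gp33. With control peptide it read 10.97, 11.12, 11.14 and 11.05, and 10.92, 11 and 11.03. The strains were apart with gp33 (-0.21 ± 0.05, adjusted p = 0.00314) and overlapped with control peptide, where the difference was -0.09. Of the 8 lid genes, Psmd7 and Psmd8 were lower with control peptide and Psmd8 with gp33. These shares are 25% and 12.5%, against the same 5.54% and 16.8% of all genes. Psmd7, the partner of the deubiquitinating subunit Psmd14, had the largest difference of the set but also a wide spread. It read 10.22, 10.66, 10.65 and 10.62 in NOD.Ln82-LCMV and 10.30, 10.10 and 10 in NOD.LCMV with control peptide (-0.40 ± 0.10, adjusted p = 0.0143). The groups overlapped through the array at 10.22, and the call ended without NOD.Ln82-LCMV control replicate 3 or NOD.LCMV control replicate 2 or 3. Psmd8, a small lid subunit, differed by -0.21 ± 0.05 (adjusted p = 0.0149) and by -0.14 ± 0.05 (adjusted p = 0.0409). The 3 base subunits without ATPase activity, Psmd1, Psmd2 and the ubiquitin receptor Psmd4, were below 0 with control peptide but not called under either peptide.

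The chaperones that assemble the core gave mixed results. Of the 4 such genes in the set, 50% were called lower with control peptide and 25% with gp33. Over all genes these shares were 5.54% and 16.8%. Psmg2 and Psmg4 were lower with control peptide (-0.22 ± 0.06, adjusted p = 0.0245, and -0.19 ± 0.04, adjusted p = 0.0124) and Psmg1 with gp33 (-0.19 ± 0.07, adjusted p = 0.0406), and Psmg3 was not called. Pomp, the core maturation factor, lies outside the symbol pattern. It read 10.07, 10.21, 10.31 and 10.24 against 9.94, 9.85 and 9.86 with control peptide. Given gp33, the mice had 10.36, 10.19, 10.22, 10.26 and 10.40 against 9.92, 9.96 and 9.96. It was lower in NOD.LCMV with both, by -0.32 ± 0.06 (adjusted p = 0.0034) and -0.34 ± 0.06 (adjusted p = 0.000369).

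The second question was how the proteasome genes responded to gp33. In NOD.LCMV, 3 of the 46 genes rose, Psme2, Psme3 and Psmg4, and 1 fell, Psmf1. This is 8.70% of the set called in either direction, against 19.8% of all genes (7.29% higher and 12.5% lower). At an unadjusted p under 0.05, 11 genes were higher and 2 lower, against 1912 and 3875 of all 19938 genes. The median response was 0.06, against -0.03 over all genes, and 32 of the 46 were above 0, against 7077 of all 19938 genes. In 16 genes every gp33 array was above every control array and in 3 below, against 10.9% and 22% of all genes. The 3 rising genes were 2 activators and 1 assembly chaperone, and no subunit of the core or cap was called. The count of rising genes was 6 without NOD.Ln82-LCMV control replicate 1 and 5 without gp33 replicate 4 of that strain or with median centring, and over all genes it went from 1453 to 1495, 1491 and 1632. In the same comparison 5 of 11 thymocyte, 4 of 7 dendritic cell and macrophage, 2 of 5 endothelial, 2 of 8 thymic epithelial and 1 of 6 fibroblast markers fell, and 5 of 5 granulocyte markers and 1 thymic epithelial marker rose. The part of these changes in the responses was not tested.

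Among the activators of the core, the PA28 genes Psme2 and Psme3 were called for the gp33 response in NOD.LCMV, and Psme1 was not. A strain difference was called with control peptide for Psme1 and Psme2, and with gp33 for Psme1 and Psme3. Psme2, the beta subunit of PA28, read 11.51, 11.36 and 11.38 in NOD.LCMV control mice and 11.90, 11.83 and 11.86 after gp33. In NOD.Ln82-LCMV it read 11.68, 11.74, 11.82 and 11.84 with control peptide, and 11.80, 11.90, 11.85, 11.75 and 11.87 with gp33. The NOD.LCMV control arrays were the lowest of all 15, and the NOD.LCMV gp33 arrays lay within the range of the other strain. Psme2 rose by 0.45 ± 0.06 in NOD.LCMV (1.36-fold, 95% interval 1.25 to 1.48, adjusted p = 3.78e-05). The response of the other strain was 0.06 ± 0.05 (95% interval -0.03 to 0.16, adjusted p = 0.952). The difference between the responses was 0.38 ± 0.07 (1.30-fold, 1.17 to 1.45, adjusted p = 0.00329). The strain difference was -0.35 ± 0.05 with control peptide (0.783-fold, 0.725 to 0.846, adjusted p = 0.000838) and 0.03 ± 0.05 with gp33 (-0.08 to 0.14, adjusted p = 0.772). Psme2b, a near-identical copy, shares a further probe set with Psme2, and this gave 0.40 and 0.11 for the responses and -0.32 and -0.04 for the strain differences. The shared probe set does not tell the transcripts of the pair apart, and whether the probe set used for Psme2 does was not tested.

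Psme3, which forms the nuclear PA28 activator, had narrow groups. It read 11.74, 11.72 and 11.72 in NOD.LCMV control mice and 12.01, 12.00 and 11.99 after gp33. In NOD.Ln82-LCMV it read 11.62, 11.69, 11.68 and 11.59 with control peptide, and 11.71, 11.68, 11.72, 11.69 and 11.68 with gp33. The 3 NOD.LCMV gp33 arrays stood above the other 12. Psme3 rose by 0.27 ± 0.04 (1.21-fold, 1.14 to 1.28, adjusted p = 0.000107) in NOD.LCMV and showed 0.05 ± 0.03 (-0.02 to 0.12, adjusted p = 0.909) in the other strain. The responses differed by 0.22 ± 0.05 (1.17-fold, 1.08 to 1.25, adjusted p = 0.00983). With gp33 Psme3 was the gene of the set that was higher in NOD.LCMV (0.30 ± 0.03, 1.24-fold, adjusted p = 7.85e-06), and with control peptide it differed by 0.08 ± 0.04 (adjusted p = 0.184).

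Psme1, the alpha subunit of PA28, read 10.35, 10.33 and 10.32 in NOD.LCMV control mice and 10.65, 10.44 and 10.49 after gp33. In NOD.Ln82-LCMV it read 10.61, 10.71, 10.79 and 10.78 with control peptide, and 10.77, 10.80, 10.77, 10.60 and 10.81 with gp33. Every NOD.LCMV gp33 array was above its controls, yet the response of 0.19 ± 0.07 (1.14-fold, 1.04 to 1.26) missed the threshold at an adjusted p of 0.0531. The test of the difference between the responses gave 0.17 ± 0.09 (adjusted p = 0.305). The strain difference was -0.39 ± 0.06 with control peptide (0.764-fold, adjusted p = 0.0013) and -0.22 ± 0.06 with gp33 (0.857-fold, adjusted p = 0.0101). The latter call ended without NOD.LCMV gp33 replicate 2.

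**Figure D3:**
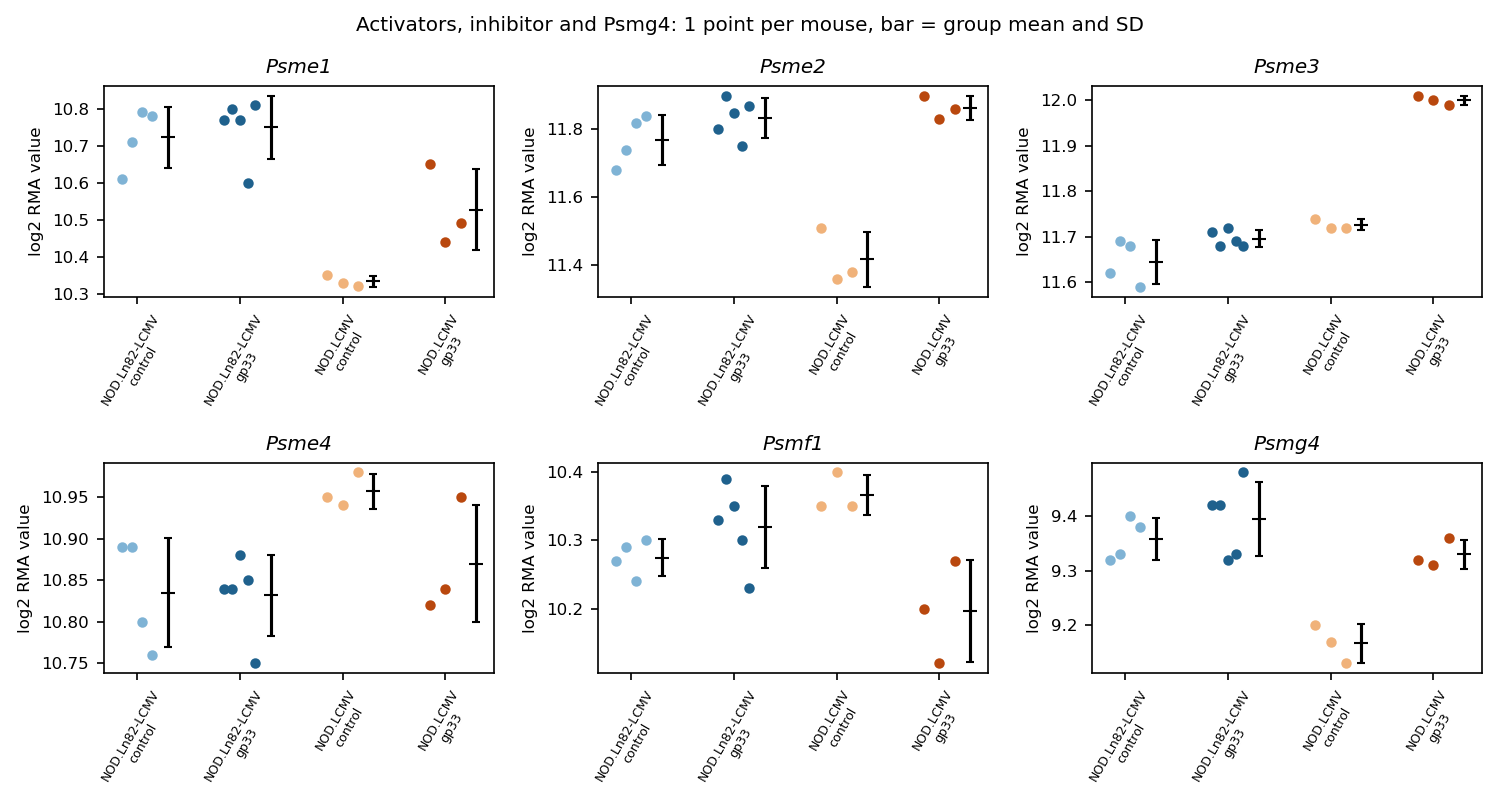
Log2 RMA value (vertical axis) of Psme1, Psme2, Psme3, Psme4, Psmf1 and Psmg4 in the 4 groups, with 1 point per mouse and a bar for the group mean and SD. The 3 NOD.LCMV control points are the lowest in Psme2, and the 3 NOD.LCMV gp33 points (11.99 to 12.01) are the highest in Psme3.

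Psme4, the PA200 activator, and Psmf1, an inhibitor of the core, ran apart from PA28. Psme4 read 10.95, 10.94 and 10.98 in NOD.LCMV control mice and 10.82, 10.84 and 10.95 after gp33, against 10.89, 10.89, 10.80 and 10.76, and 10.84, 10.84, 10.88, 10.85 and 10.75 in NOD.Ln82-LCMV. The NOD.LCMV control arrays were above those of the other strain, but no comparison was called (response -0.09 ± 0.05, adjusted p = 0.295; strain difference with control peptide 0.12 ± 0.05, adjusted p = 0.127). Psmf1 read 10.35, 10.40 and 10.35 in NOD.LCMV control mice and 10.20, 10.12 and 10.27 after gp33, against 10.27, 10.29, 10.24 and 10.30, and 10.33, 10.39, 10.35, 10.30 and 10.23 in NOD.Ln82-LCMV. The NOD.LCMV groups did not overlap, and Psmf1 fell by 0.17 ± 0.05 (0.889-fold, 0.827 to 0.955, adjusted p = 0.0214). The value ran from -0.21 to -0.13 as single arrays were left out, and the call ended on dropping NOD.LCMV control replicate 2, gp33 replicate 1 or gp33 replicate 2, with median centring, and in a fit of the 2 groups alone. Psmg4, the remaining called gene, read 9.20, 9.17 and 9.13 in NOD.LCMV control mice and 9.32, 9.31 and 9.36 after gp33, against 9.32, 9.33, 9.40 and 9.38, and 9.42, 9.42, 9.32, 9.33 and 9.48 in NOD.Ln82-LCMV. Its NOD.LCMV control arrays were the lowest of the 15 and the rise was 0.16 ± 0.05 (1.12-fold, 1.04 to 1.20, adjusted p = 0.023). The call was lost when either of the NOD.LCMV control replicates 2 and 3, or either of the gp33 replicates 1 and 3, was dropped, with values of 0.15 to 0.18.

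In NOD.Ln82-LCMV, limma called 0 of the 46 genes after gp33, against 0.00502% of all genes. At an unadjusted p under 0.05, 2 genes were higher, Psma2 and Psmb4, and 0 lower, against 528 and 662 of all 19938 genes. The responses ran from -0.13 to 0.12 with a median of 0.01, and the smallest adjusted p was 0.748 (Psmb4, 0.10 ± 0.04). No gene had gp33 arrays all above or all below the controls, against 0.667% and 0.848% of all genes. The difference between the responses of the strains was called for 3 of the 46 genes (6.52%), Psme2 and Psme3 higher in NOD.LCMV and Psmf1 lower (-0.21 ± 0.06, adjusted p = 0.0466), against 8.73% of all genes (4.46% higher and 4.26% lower). The Psmf1 difference lost its call with median centring and with the loss of any single array other than NOD.Ln82-LCMV gp33 replicate 5 or NOD.LCMV gp33 replicate 3.

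The relation to the rest of the pathway was described with gene lists that hold no gene of the set. Immunoproteasome and thymoproteasome subunits replace the catalytic beta subunits in immune cells and in cortical thymic epithelium. Psmb10, which takes the place of the trypsin-like Psmb7, read 10.59, 10.62, 10.69 and 10.58 in NOD.Ln82-LCMV and 10.22, 10.27 and 10.20 in NOD.LCMV with control peptide. In gp33 arrays the values were 10.72, 10.81, 10.69, 10.72 and 10.62, and 10.25, 10.13 and 10.12. The strains were well apart, by -0.39 ± 0.05 (adjusted p = 0.000292) and -0.55 ± 0.05 (adjusted p = 6.47e-07), whereas Psmb7 itself was not called. Psmb9, which replaces Psmb6, was also lower with both peptides (-0.25 ± 0.07, adjusted p = 0.0298; -0.27 ± 0.07, adjusted p = 0.00522), and Psmb8, which replaces Psmb5, with gp33 (-0.27 ± 0.08, adjusted p = 0.0138). The call of Psmb9 with control peptide and that of Psmb8 ended when single arrays were left out. Psmb11, the thymoproteasome subunit, read 8.56, 8.45 and 8.51 in NOD.LCMV control mice and 7.93, 8.02 and 7.97 after gp33, against 8.45, 8.66, 8.37 and 8.54, and 8.69, 8.90, 8.98, 8.80 and 8.24 in NOD.Ln82-LCMV. It fell by 0.53 ± 0.14 on the log2 scale in NOD.LCMV (adjusted p = 0.0111), and the difference between the responses was -0.75 ± 0.18 (adjusted p = 0.0146). The mean of the thymic epithelial markers, a list that holds Psmb11, lay between 9.44 and 9.54 in the NOD.LCMV control arrays. After gp33 it lay between 9.34 and 9.55, with 1 marker higher and 2 lower, Psmb11 itself being 1 of these 2. The part of thymic epithelium in the Psmb11 value was not tested. In all, 2 of these 4 genes were lower in NOD.LCMV with control peptide, where 5.54% of all genes were lower, and 4 of 4 with gp33, where 16.8% were. With gp33 the dendritic cell and macrophage (5 of 7), B cell (3 of 4) and thymic epithelial (4 of 8) markers were also lower. Psmb11 itself was 1 of those 4 epithelial markers. The part of these cell types in the values was not tested.

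Among 11 measured regulators of proteasome gene transcription, 4 rose and 2 fell after gp33 in NOD.LCMV; for this and the lists that follow, 7.29% of all genes rose and 12.5% fell in that comparison. Nfe2l1, the activator of proteasome genes, read 10.28, 10.27 and 10.19 in control mice and 10.47, 10.49 and 10.36 after gp33 (0.19 ± 0.05, adjusted p = 0.00827), and Ngly1, the enzyme that activates it by removing glycans, fell by 0.40 ± 0.08 (adjusted p = 0.00268). Stat3, a cytokine-activated factor, read 11.17, 11.15 and 11.18 and then 11.78, 11.77 and 11.61 (0.55 ± 0.05, adjusted p = 1.06e-06). The groups of both genes were apart. The small Maf partners Mafk and Maff rose by 0.32 ± 0.05 (adjusted p = 0.000485) and 0.63 ± 0.09 (adjusted p = 0.000136), with Maff among the dim genes, and Nfyc, of the CCAAT-binding factor, fell by 0.13 ± 0.04 (adjusted p = 0.0365), a call that several alternatives ended. Between strains with control peptide, 0 of the 11 regulators were higher in NOD.LCMV and 1 was lower, against 4.77% and 5.54% of all genes. With gp33, 5 were higher (Nfe2l1, Bach1, Maff, Mafk and Stat3) and 2 lower (Nfya and Nfyc), against 10.2% and 16.8%. Nfya, a partner of Nfyc, was lower in NOD.LCMV by -0.33 ± 0.06 with control peptide (adjusted p = 0.00355) and -0.30 with gp33. Of 11 genes for ubiquitin supply, shuttles and the p97 unfoldase, 2 rose and 1 fell after gp33 in NOD.LCMV. The ubiquitin-activating enzyme Uba6 rose from 10.19, 10.16 and 10.27 to 10.64, 10.81 and 10.83 (0.55 ± 0.08, adjusted p = 0.000163), the shuttle factor Ubqln4 by 0.27 ± 0.07 (adjusted p = 0.0171), and the p97 cofactor Ufd1 fell by 0.21 ± 0.04 (adjusted p = 0.00226). Of 10 proteasome-bound or regulating factors, 1 rose, Txnl1, a thioredoxin-like protein of the 19S cap (0.25 ± 0.07, adjusted p = 0.0176). The calls of Ubqln4 and Txnl1 ended when single NOD.LCMV arrays were left out. Of the same 10 factors, Zfand2a, the heat- and arsenite-induced proteasome partner, had the largest strain difference. It read 10.92, 10.84, 10.89 and 10.93 in NOD.Ln82-LCMV and 10.30, 10.04 and 9.76 in NOD.LCMV with control peptide (-0.86 ± 0.09, adjusted p = 7.77e-05), and differed by -1.04 ± 0.09 with gp33 (adjusted p = 3.77e-07).

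The strain shift was compared with that of the 58 measured cytosolic ribosomal protein genes, another set of abundant housekeeping genes. With control peptide 16 of the 58 (27.6%) were lower and 1 higher, with a median of -0.10, and with gp33 23 (39.7%) were lower and 3 higher, with a median of -0.10. The shares are close to those of the proteasome genes with control peptide (30.4%) and above them with gp33 (28.3%), so a lower share in NOD.LCMV is not particular to the proteasome. In single arrays, the median deviation of the 46 genes from their means over 15 arrays was -0.01, 0.05, 0.08 and 0.04 in NOD.Ln82-LCMV control mice and -0.09, -0.08 and -0.11 in NOD.LCMV control mice. With gp33 it was 0.09, 0.07, 0.05, 0.00 and 0.02, and -0.05, -0.04 and -0.02. All 6 NOD.LCMV arrays lay below all 9 NOD.Ln82-LCMV arrays, NOD.LCMV gp33 replicate 3 (-0.02) and NOD.Ln82-LCMV control replicate 1 (-0.01) being nearly level. Relative to the median deviation of all genes in the same array, the separation held with control peptide (0.00 to 0.08 against -0.12 to -0.09) but not over all arrays: NOD.LCMV gp33 replicate 3 stood at 0.02, above NOD.Ln82-LCMV control replicate 1 at 0.00 and gp33 replicate 5 at -0.02.

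**Figure D4:**
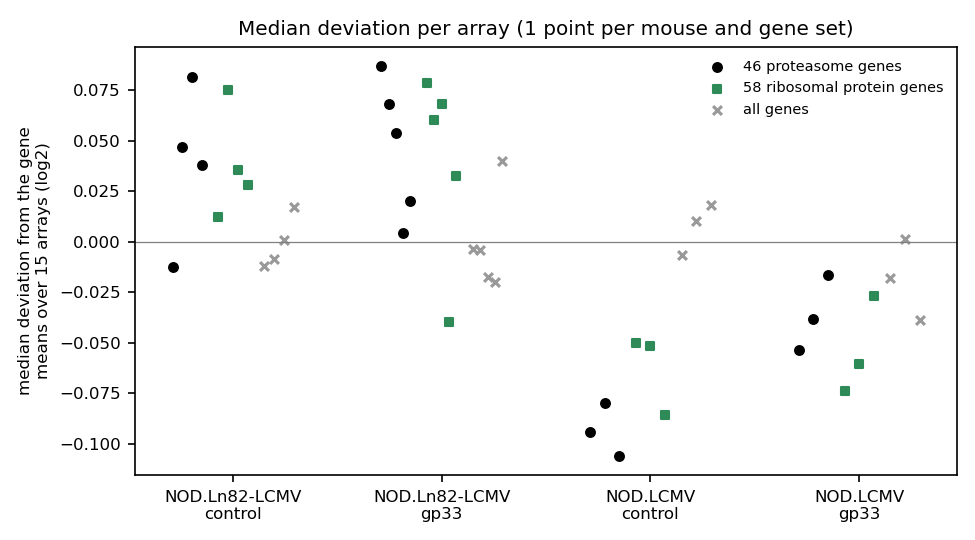
Median deviation from the gene means over 15 arrays (log2; vertical axis) in each array for the 46 proteasome genes, 58 ribosomal protein genes and all genes, by group, with 1 point per mouse and gene set. The proteasome medians lie between -0.11 and -0.02 in NOD.LCMV and between -0.01 and 0.09 in NOD.Ln82-LCMV.

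Apart from the groups, the 45 genes above the dim limit varied together to a modest degree. After the group means were removed, the median correlation over 15 arrays between pairs of these genes was 0.24 (990 pairs). It was 0.00 among 665 genes taken evenly from all genes above the dim limit. The arrays share their normalization and RNA quality, which such a value also contains. Psmc2 followed the mean of the other genes most closely (0.93), then Psma7 (0.80), Psmd13 (0.77), Psma1 (0.76) and Psmd7 (0.76). Psmc6 (-0.30), Psmg3 (-0.14) and Psma2 (-0.13) followed it least. Genes of the pathway lists and the ribosomal protein genes were left out of a search for similar genes outside the set. Among the remaining genes above the dim limit, those most like its mean were Scarb1 (0.92), Vdac1 (0.90), Park7 (0.89), Cmss1 (0.88) and Rpa2 (0.88). The arrays with the lowest mean score of the set, in units of each gene's own spread, were NOD.Ln82-LCMV control replicate 1 (-0.98) and gp33 replicate 4 (-0.80).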

How the data were processed

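Whole-thymus RNA of 15 mice in 4 groups was measured on Affymetrix Mouse Gene 1.0 ST arrays. The authors deposited log2 values made by RMA in Affymetrix Expression Console 1.1, per the submitters' processing notes. RMA subtracts background, quantile-normalizes and summarises probes, which reduces shifts common to most genes, but the array medians over all probe sets still differed by strain (7.59 to 7.63 against 7.63 to 7.67). The number of arrays limits the precision. From these values, probe sets with 1 symbol in the platform annotation were kept (21789 of 35556; 1621 had several symbols and 12146 none), and a gene was represented by its probe set with the highest mean, which left 19938 genes. A probe set shared by Psme2 and Psme2b was used only as a check.

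The 15 arrays were fitted together with group means in limma 3.58.1 under R 4.3.3. Variances were moderated by eBayes, which raised the 11 residual degrees of freedom to 14.9, with Benjamini-Hochberg adjustment over all genes; tests were two-sided and called at an adjusted p under 0.05. Every gene may be counted; values per mouse were given for called genes with the smallest adjusted p (up to 16 in NOD.LCMV for gp33, up to 8 in each other comparison), the catalytic, activator and inhibitor genes and the dimmest gene. Genes of the pathway lists were named only if called, at most 8 per list. The members and lists were chosen with earlier results of these data known. As alternatives, arrays were centred on their medians, quantile-normalized again, weighted, or left out one at a time; the dimmest 33.3% of genes were dropped; probe sets of a gene were averaged; the variance was given a trend; the fit was limited to the groups compared; and a replicate block was added. Replicate numbers of the NOD.LCMV mice come from the order of the samples; the numbers of the NOD.Ln82-LCMV mice come from the labels, and no pairing was used.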

Additional observations from a re-analysis of the deposited data

Results flagged for a closer look

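In the 46 genes, 92 groups of 4 or 5 arrays were examined for a single array far from the others, and 7 were found, while chance alone gives about 1 in 20 groups. Among NOD.Ln82-LCMV control mice, Psmb5 was low in replicate 2 (12.10, the next array at 12.27), and in replicate 1 Psmd7 was low (10.22, next 10.62) and Psmd8 was low (11.11, next 11.21). Among NOD.Ln82-LCMV gp33 mice, replicate 5 had low Psmd14 (11.55, next 11.69) and Psmd6 (10.82, next 10.91) and high Psmg3 (7.86, next 7.52). In the same group Psme1 was low in replicate 4 (10.60, next 10.77).

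The responses to gp33 differed between the strains, by limma's test of the difference, for Psme2 (0.38, adjusted p = 0.00329), Psme3 (0.22, adjusted p = 0.00983) and Psmf1 (-0.21, adjusted p = 0.0466).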

How the results depend on the processing

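Of 35 called values of single proteasome genes, 19 kept their call in every alternative run and 0 reversed. Of the 14 genes lower in NOD.LCMV with control peptide, 7 kept the call throughout (Psmb2, Psmb3, Psmb4, Psmb6, Psmd5, Psme1 and Psme2), as did 7 of the 13 lower with gp33 (Psmb2, Psmb3, Psmb4, Psmb6, Psmc1, Psmd5 and Psmd10) and both calls of Psme2 and Psme3 on gp33. With median centring, 5 genes rose and 0 fell after gp33 in NOD.LCMV, 0 had a lower response there, 22 were called with control peptide, all lower (10.7% of all genes lower), and 15 were lower with gp33 (21.5%). Over all genes that centring changed the strain split with control peptide from 952 higher and 1105 lower to 384 and 2132, and with gp33 from 2032 and 3354 to 1642 and 4284. With array weights, 8 genes rose in NOD.LCMV, 4 had a higher response there and 26 were called with control peptide, 24 of them lower. The calls over all genes also grew with array weights, from 1453 higher and 2490 lower to 1705 and 3454 in the NOD.LCMV response, from 890 and 850 to 1272 and 1903 in the difference between responses, and from 952 and 1105 to 2304 and 2046 with control peptide. In a fit of only the groups compared, 0 fell after gp33. The cause of these changes was not tested.

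When single arrays were left out, the genes that rose after gp33 in NOD.LCMV numbered 2 to 6 (6 without NOD.Ln82-LCMV control replicate 1 and 5 without gp33 replicate 4 of that strain) and those that fell 0 to 1. Higher responses in NOD.LCMV numbered 2 to 4, lower ones 0 to 1, and calls in NOD.Ln82-LCMV 0 to 0. Calls with control peptide numbered 7 to 18, with 9 without NOD.Ln82-LCMV control replicate 3 and 7 without NOD.LCMV control replicate 3. With gp33, 1 to 1 was higher and 8 to 14 were lower (8 without NOD.LCMV gp33 replicate 1 or 2). The replicate block over the NOD.Ln82-LCMV numbers gave 0 calls after gp33 in that strain and 2 higher and 1 lower response, the same counts as without it. Same-numbered mice of that strain did not deviate together (correlations of 0.12, 0.01, -0.05 and -0.23).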
